A study of Mus musculus with 37 samples.

Results

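Glutathione S-transferases were followed in mouse liver through 10 genes, Gsta2, Gsta3 and Gsta4 of the alpha class, Gstm1, Gstm2 and Gstm3 of the mu class, Gstp1 of the pi class, Gstt1 and Gstt2 of the theta class, and Gstk1 of the kappa class. All probes carrying these 10 symbols were taken, which gave 17 of the 30146 probes and 10 of the 21450 genes on the panel. The livers came from 37 mice of the outbred strain Crl:CD1(ICR), CD1 in the labels, dosed daily by gavage with the ammonium salt of HFPO-DA, a short-chain PFAS, in deionized water, or with deionized water alone at 0 mg/kg/day. The groups held 5 control males, 5 males at 0.1, 5 at 0.5 and 4 at 5 mg/kg/day, and 5, 5, 4 and 4 females in the same order. Males were about 6 weeks old at the first dose and received 84 or 85 doses, 70 days of them before mating. Females were about 11 weeks old, received 53 to 65 doses, and were dosed from 14 days before mating through lactation. Sex cannot be told apart from age, length of dosing or lactation in these livers.

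Glutathione S-transferases join the tripeptide glutathione to electrophiles, which makes reactive or foreign compounds more soluble and readies them for export from the cell. The alpha, mu, pi and theta classes are soluble enzymes of the cytosol, while the kappa enzyme is found in mitochondria and peroxisomes and has a different fold. Liver is among the richest sources of these enzymes, and in mice the pi class is known to be more abundant in male than in female liver. Several members are known targets of NRF2 and of nuclear receptors that respond to foreign compounds.

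Expression was measured by TempO-Seq on sections of fixed liver, in which pairs of probes are ligated on the RNA and counted by sequencing. Total counts ranged from 2101495 to 13878254 per mouse, and 2 males were the shallowest, replicate 3 at 5 mg/kg/day with 2101495 and replicate 2 at 0.5 mg/kg/day with 2608954. Totals ran from 6947711 to 9365709 in control males and from 2101495 to 9098192 in males at 5 mg/kg/day. Probes with a count ran from 14630 to 17917 and from 11446 to 14939 in the same order. The comparison of these 2 groups is thus between unlike depths. Values below are in CPM, the counts of a probe scaled to the same normalized total in every mouse, given in the order of a group's replicates, and the probe of a gene with the most counts is called its lead probe. Probes differ in efficiency, so CPM was compared between groups for 1 probe and not between genes. Sums over probes are given as descriptions only. Since whole liver was assayed, fewer cells of a type and less RNA per cell cannot be told apart.

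At 5 mg/kg/day the family moved in both directions. In males, Gstt2 and Gstk1 rose while Gsta3, Gsta4, Gstm2 and Gstp1 fell. In females, Gstt2 and Gstp1 rose and Gstm2 fell. Gstp1 was the member whose change differed between the sexes. Gsta2, Gstm1, Gstm3 and Gstt1 did not pass the test at this dose in either sex. With edgeR's quasi-likelihood test, adjusted by Benjamini and Hochberg's method over 18570 probes and called under 0.10, 3 of the 17 probes were raised and 5 were lowered in males, where 4.21% of all probes were raised and 8.49% were lowered. In females 4 of 17 were raised and 1 was lowered, against 2.26% raised and 2.26% lowered over all probes. The median log2 fold change over the 10 lead probes was -0.44 in males and 0.26 in females, beside -0.12 and -0.01 over all probes. With DESeq2 size factors the median over all probes in males was -0.03.

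**Figure D1:**
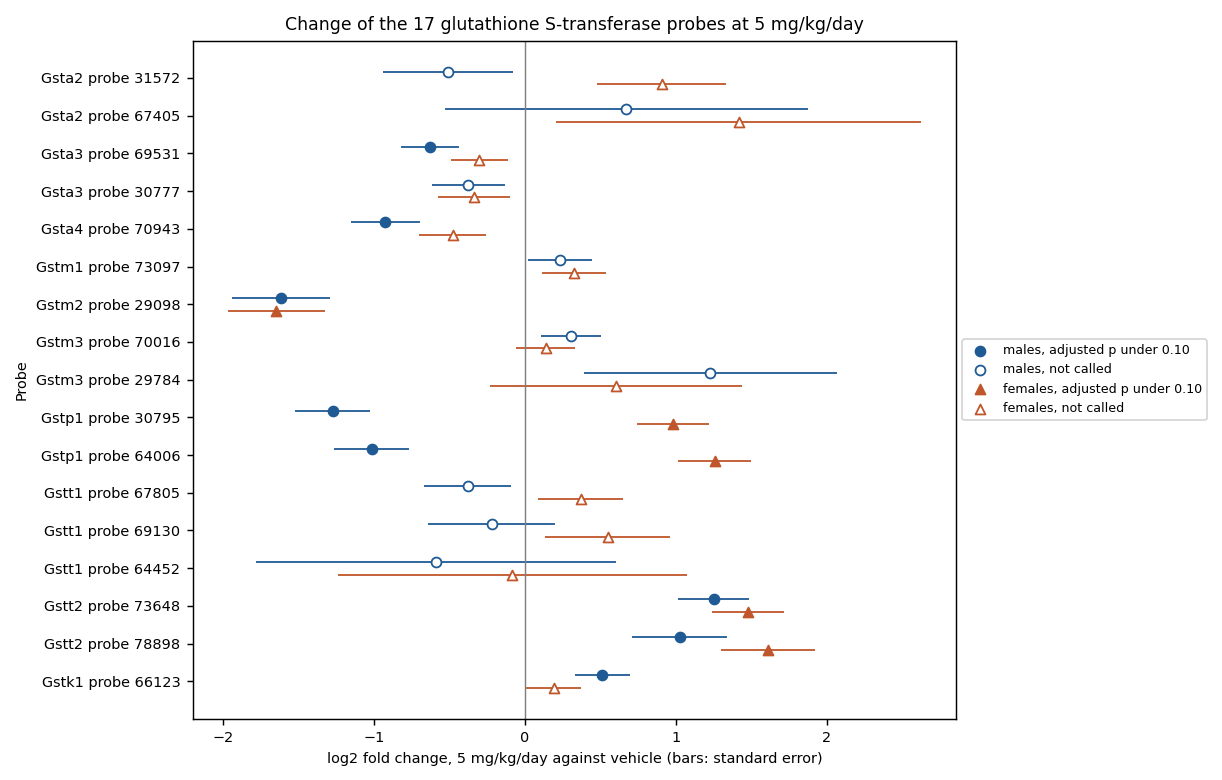
Log2 fold change (x axis) of each of the 17 probes (y axis) at 5 mg/kg/day against vehicle in males (circles) and females (triangles), with standard errors; filled symbols had an adjusted p under 0.10. The 2 Gstp1 probes lie at -1.27 and -1.02 in males and at 0.98 and 1.25 in females, while Gstm2 lies left and Gstt2 right of 0 in both sexes.

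The CPM of the 17 probes was also summed. This sum depends on the efficiency and number of each gene's probes, so neither it nor a share of it measures total transferase RNA. It was 11192 ± 2583 CPM (SD, n = 5) in control males and 6447 ± 1248 CPM (SD, n = 5) in control females. The sum at 5 mg/kg/day was 7661 ± 581 CPM (SD, n = 4) in males and 6869.7 ± 812 CPM (SD, n = 4) in females. The sums of the control males, 8783 to 14168 CPM, and of the males at 5 mg/kg/day, 7054 to 8369.6 CPM, did not overlap, while those of the female groups did. The lead probe of Gstp1 made up 37.2% ± 9.34 (SD, n = 5) of the summed CPM in control males and 6.1% ± 1.65 (SD, n = 5) in control females. In males at 5 mg/kg/day its share was 23.1% ± 3.63 (SD, n = 4). From control males to males at 5 mg/kg/day, the mean of this probe went from 4273 to 1767 CPM. That of the lead probe of Gsta3 went from 3270 to 2110 CPM.

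**Figure D2:**
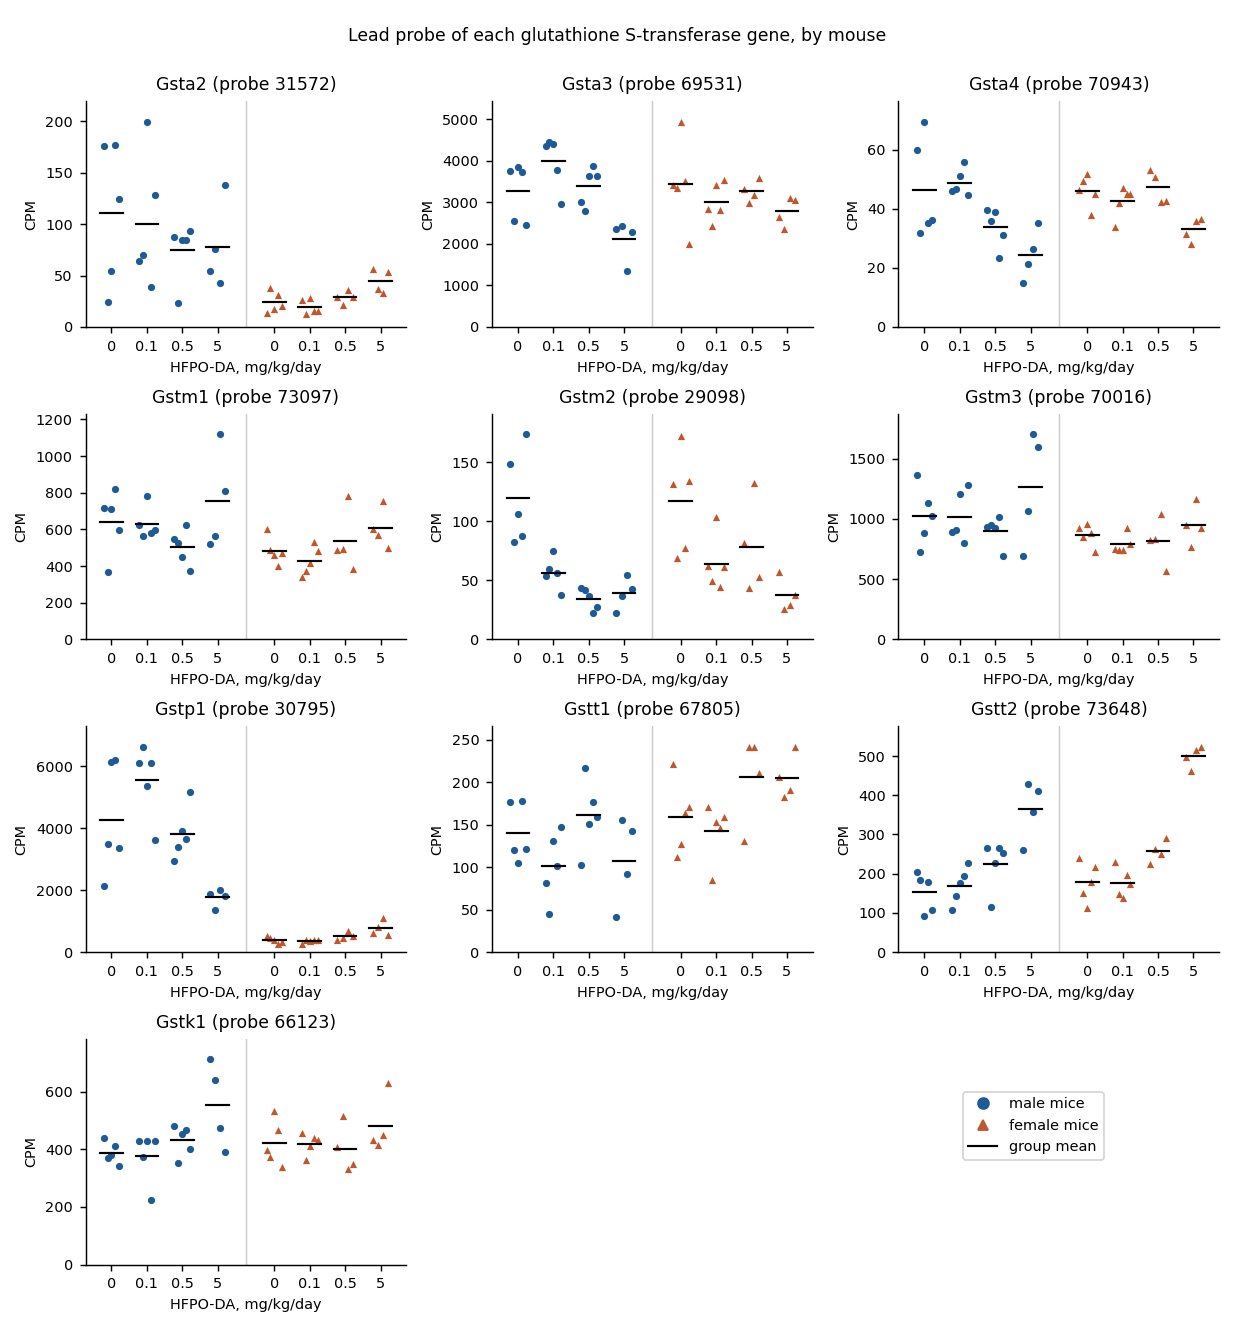
CPM (y axis, from 0) of the lead probe of each gene in every mouse by daily dose (x axis, mg/kg/day of HFPO-DA), males as circles on the left and females as triangles on the right of each panel, with bars at the group means. Gstt2 is highest at 5 mg/kg/day in both sexes, and Gstp1 is far higher in males. Gstm2 has lower means in the dosed groups than in the controls, with females at 0.1 and 0.5 mg/kg/day overlapping their controls.

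Gstp1, the pi class enzyme, lies at chr19:4035407-4037985 (minus strand, GRCm38) and had 2 probes. In control males the lead probe read 2132, 3501, 6145, 6209.7 and 3376 CPM. In control females it read 502, 460.2, 387, 246 and 335 CPM. Every control male was above every control female, and the log2 difference was 3.47 ± 0.25, adjusted p = 6.09e-14 (SE, edgeR's quasi-likelihood test), an 11.1-fold higher level in males. The other probe gave 3.57 ± 0.25, adjusted p = 6.09e-14. With these 2 probes and 1 of Gsta2, 3 of 17 probes were higher in control males, where 1.24% of all probes were, and none was higher in control females.

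The order of the Gstp1 groups by mean CPM of the lead probe ran from males at 0.1 mg/kg/day (5566 ± 1180.2 SD, n = 5) through control males (4273 ± 1819, n = 5), males at 0.5 (3811 ± 833, n = 5) and males at 5 mg/kg/day (1767 ± 278, n = 4). Below these came females at 5 (762 ± 243, n = 4), females at 0.5 (513 ± 127, n = 4), control females (386 ± 102, n = 5) and females at 0.1 mg/kg/day (357 ± 48.8, n = 5). Neighbours in this order overlapped mouse by mouse, except males at 0.5 against males at 5, and males at 5 against females at 5 mg/kg/day. The male to female ratio of the means was 11.1 at 0, 15.6 at 0.1, 7.43 at 0.5 and 2.32 at 5 mg/kg/day.

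Gstp1 fell in males and rose in females at 5 mg/kg/day. The lead probe read 1869.6, 1368, 2011 and 1819 CPM in these males, all below the lowest control male, with a log2 fold change of -1.27 ± 0.25, adjusted p = 0.000373. In females at 5 mg/kg/day it read 625, 797, 1088 and 536 CPM, all above the highest control female, with a log2 fold change of 0.98 ± 0.24, adjusted p = 0.00866. Without female replicate 3, the highest of the 4, the female change was 0.76 and was no longer called (adjusted p = 0.121). The second probe read 353, 353.5, 451 and 440.2 CPM in males at 5 mg/kg/day, overlapping the control males, of which the lowest read 423 CPM. It changed by -1.02 ± 0.25, adjusted p = 0.00582 in males and by 1.25 ± 0.24, adjusted p = 0.000637 in females. The change in males minus that in females was -2.26 ± 0.34, adjusted p = 0.000134 for the lead probe and -2.27 ± 0.35, adjusted p = 0.000146 for the other (edgeR's quasi-likelihood test of the interaction). Both Gstp1 probes and no other of the 17 passed this test in the direction of a higher change in females, where 0.463% of all probes did, and none passed in the other direction.

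**Figure D3:**
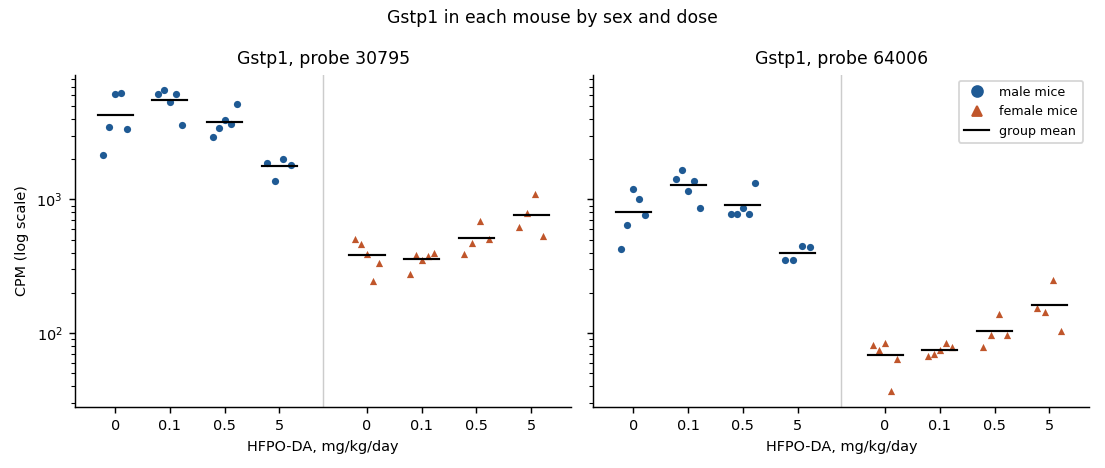
CPM on a log scale (y axis) of the 2 Gstp1 probes in every mouse by daily dose (x axis, mg/kg/day of HFPO-DA), males as circles and females as triangles, with bars at the group means. The females at 5 mg/kg/day lie above the control females in both panels, the males at 5 mg/kg/day lie below the control males for the lead probe and overlap them for the second, and the sexes stay apart at every dose.

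Gstp2, a near copy of Gstp1 beside it on chromosome 19, was measured by a probe of its own and had the same pattern at a far lower count. It read 65.3 ± 34.5 CPM (SD, n = 5) in control males, 25.6 ± 3.65 (SD, n = 4) in males at 5 mg/kg/day, 5.75 ± 3.04 (SD, n = 5) in control females and 13.6 ± 5.78 (SD, n = 4) in females at 5 mg/kg/day. Its log2 fold change was -1.35 ± 0.42, adjusted p = 0.0342 in males and 1.24 ± 0.41, adjusted p = 0.0988 in females. Of the 50-base windows of the Gstp1 transcripts, 51% also occur in Gstp2 transcripts, and the sequences of the probes were not used here, so the 2 genes may share reads and their separate levels are uncertain. Only the members and the other soluble transferase genes listed for context were searched for shared windows. Those that share windows with a further member are named beside it below.

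The RefSeq start of Gstp1 is preceded by the heptamer TGAGTCA, the letters of the AP-1 and NRF2 type element. Its first base is at -74 counted from that start. By the gene position given above, the last 30 bases of the stretch printed here lie inside the gene, with most of the heptamer. The stretch from -250 to -44 is shown because it belongs to the member that changed in opposite directions, with the heptamer in capitals (chr19:4037956-4038162, minus strand, GRCm38.p6, RefSeq, printed 5′ to 3′).
Gstp1: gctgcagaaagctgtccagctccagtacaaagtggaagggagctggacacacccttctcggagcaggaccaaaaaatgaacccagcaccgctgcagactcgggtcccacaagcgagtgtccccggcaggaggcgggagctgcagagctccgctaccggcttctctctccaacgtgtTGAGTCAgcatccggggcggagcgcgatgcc

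Of the alpha class, Gsta3 and Gsta4 fell in males at 5 mg/kg/day. Gsta3 (chr1:21240589-21265661, plus strand), the main constitutive alpha enzyme of mouse liver and the one known for conjugating the epoxide of aflatoxin, had the most counts of the 17 probes. In control males its lead probe read 3755, 2555, 3847, 3734 and 2461 CPM. In males at 5 mg/kg/day it read 2367, 2433, 1356 and 2286 CPM, all below the lowest control, with a log2 fold change of -0.63 ± 0.19, adjusted p = 0.0306 (edgeR's quasi-likelihood test). This call rested on replicate 3 at 5 mg/kg/day, the mouse with the fewest counts of all, without which the change was -0.47 (adjusted p = 0.153). The other Gsta3 probe read 143 ± 39.3 CPM in control males (SD, n = 5) and 110.2 ± 13.3 CPM at 5 mg/kg/day (SD, n = 4), and its change was -0.38 ± 0.24, adjusted p = 0.368, which is not called. In females the lead probe read 1998 to 4947 CPM in the controls and 2351 to 3109 CPM at 5 mg/kg/day, overlapping, with -0.30 ± 0.19, adjusted p = 0.64.

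Gsta4 (chr9:78182774-78209349, plus strand) prefers the reactive hydroxyalkenals that lipid peroxidation leaves behind. In control males it read 59.9, 31.9, 69.6, 35.1 and 36.1 CPM. Males at 5 mg/kg/day read 14.9, 21.3, 26.3 and 35.4 CPM, of which the highest lay within the control range, and the log2 fold change was -0.93 ± 0.23, adjusted p = 0.00647. In females the control values were 46.3, 49.5, 52, 37.8 and 45.1 CPM. Those at 5 mg/kg/day were 31.6, 28.2, 35.9 and 36.5 CPM, all below the lowest control female, with -0.48 ± 0.22, adjusted p = 0.353. This female change passed the threshold when each sex was fitted apart (edgeR adjusted p = 0.0463, DESeq2 adjusted p = 0.0246). The difference between the sexes in the change was -0.45 ± 0.32, adjusted p = 0.702, so a call in males and none in females does not show that the sexes differed.

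Gsta2 (chr9:78331018-78355788, minus strand), an inducible alpha enzyme that also reduces lipid hydroperoxides, differed between the sexes without HFPO-DA. Its lead probe read 176, 23.9, 54.2, 177 and 125 CPM in control males and 13.8, 37.8, 17.5, 30.8 and 20.2 CPM in control females, and 1 control male lay within the female range. The log2 difference was 2.21 ± 0.42, adjusted p = 0.00065. The males at 5 mg/kg/day read 54.5, 75.6, 42.8 and 138 CPM and the females 56.4, 37.4, 33.3 and 53.1 CPM, with changes of -0.51 ± 0.43, adjusted p = 0.535 in males and 0.91 ± 0.43, adjusted p = 0.365 in females. With each sex fitted apart the female change was called (edgeR adjusted p = 0.0442, DESeq2 adjusted p = 0.0267), and the difference between the sexes was -1.41 ± 0.61, adjusted p = 0.394. The second Gsta2 probe had a median of 11 counts per mouse and no count in 6 mice, and was called in no comparison. Of the Gsta2 windows of 50 bases, 33% occur in Gsta1 as well, so reads of these genes may not be separable.

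A match to the letters TGACNNNGC, the core of the antioxidant response element, was found among the members with an entry upstream of Gsta3 alone, with its first base at -121. The 250 bases before that start are shown since this member carries the largest count of the family and fell in males (chr1:21240335-21240584, plus strand, GRCm38.p6, RefSeq, match in capitals).
Gsta3: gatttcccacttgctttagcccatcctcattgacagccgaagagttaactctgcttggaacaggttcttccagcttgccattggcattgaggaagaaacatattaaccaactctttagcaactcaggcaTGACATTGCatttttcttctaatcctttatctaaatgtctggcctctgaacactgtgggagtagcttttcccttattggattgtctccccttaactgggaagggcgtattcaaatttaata

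Of the mu class, Gstm2 fell in both sexes, and it was the only member called below 5 mg/kg/day. Gstm2 lies at chr3:107981702-107986453 (minus strand) between Gstm3 and Gstm1. In control males it read 148, 82.6, 106, 87.4 and 174 CPM. Males at 0.1 mg/kg/day read 53.3, 59.5, 74.7, 56 and 37.3 CPM and those at 0.5 mg/kg/day 43.4, 41.5, 37.1, 22.2 and 27.8 CPM. The males at 5 mg/kg/day read 22.4, 36.9, 54.8 and 42.6 CPM. All 3 dosed male groups lay below the lowest control male. The log2 fold changes were -1.09 ± 0.29, adjusted p = 0.513 at 0.1, -1.80 ± 0.30, adjusted p = 0.000567 at 0.5 and -1.61 ± 0.32, adjusted p = 0.000612 at 5 mg/kg/day, the last a 3.06-fold lower level (edgeR's quasi-likelihood test). DESeq2 fitted to males alone called the change at 0.1 mg/kg/day too, at -1.07 with an adjusted p of 0.0859.

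Females began from a like level, as Gstm2 read 131, 69, 172, 77.7 and 134 CPM in their controls, and the control sexes differed by 0.03 ± 0.29, adjusted p = 1. Females at 5 mg/kg/day read 56.9, 25.5, 28.8 and 38 CPM, below every control, with -1.65 ± 0.32, adjusted p = 0.000656, and the change differed between the sexes by 0.03 ± 0.44, adjusted p = 1. At 0.1 and 0.5 mg/kg/day the females read 44.2 to 104 and 43.7 to 132 CPM, overlapping the controls, with -0.86 ± 0.29, adjusted p = 1 and -0.59 ± 0.31, adjusted p = 1. The stretch from -250 to -4 of the RefSeq start of Gstm2 is shown because this member was also called at 0.5 mg/kg/day. Its last 30 bases lie inside the gene by the position given above. The stretch held none of the 3 motifs searched (chr3:107986424-107986670, minus strand, GRCm38.p6, RefSeq).
Gstm2: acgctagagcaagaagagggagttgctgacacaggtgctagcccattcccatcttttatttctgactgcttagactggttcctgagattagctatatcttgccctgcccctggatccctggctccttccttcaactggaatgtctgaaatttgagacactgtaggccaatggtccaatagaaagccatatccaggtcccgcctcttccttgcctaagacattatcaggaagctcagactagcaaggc

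Its neighbours Gstm1 (chr3:108012255-108017973, minus strand) and Gstm3 (chr3:107963696-107969283, minus strand), both mu enzymes, were not called in any comparison. Gstm1 read 642 ± 173 CPM (SD, n = 5) in control males and 754 ± 275 (SD, n = 4) at 5 mg/kg/day, with 0.23 ± 0.21, adjusted p = 0.581. In females it read 484 ± 72.7 (SD, n = 5) and 607 ± 108 (SD, n = 4), with 0.33 ± 0.21, adjusted p = 0.672. The lead probe of Gstm3 read 689, 1064, 1703 and 1598 CPM in the 4 males at 5 mg/kg/day, from below the lowest of the control males (727 to 1363 CPM) to above the highest, and its change was 0.30 ± 0.20, adjusted p = 0.383. In females Gstm3 changed by 0.14 ± 0.20, adjusted p = 1. Its second probe had a median of 31 counts per mouse and was not called. Gstm1 shares 8.6% of its 50-base windows with Gstm3 and 0.763% with Gstm2, and Gstm3 shares 6.02% with Gstm6, so cross-counting between these genes cannot be set aside for probes in the shared parts.

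Of the theta class, Gstt2 rose in both sexes. Gstt2 (chr10:75831114-75837424, minus strand) acts on sulfate esters and small organic peroxides. In control males its lead probe read 205, 183, 91.1, 179.7 and 108 CPM. Males at 5 mg/kg/day read 259, 429.5, 357 and 411 CPM, all above the highest control, a 2.38-fold higher level with a log2 fold change of 1.25 ± 0.24, adjusted p = 0.000264. Control females read 241, 152, 112, 178 and 217 CPM. Females at 5 mg/kg/day read 499, 463, 515 and 524 CPM, more than any control female and closely grouped, a 2.78-fold higher level with 1.48 ± 0.24, adjusted p = 3.11e-05. The second probe changed by 1.02 ± 0.32, adjusted p = 0.0339 in males and by 1.61 ± 0.31, adjusted p = 0.000599 in females, and the male call was lost with males fitted alone (edgeR adjusted p = 0.131). The change did not differ detectably between the sexes (-0.23 ± 0.33, adjusted p = 0.936).

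At 0.5 mg/kg/day Gstt2 lay between the controls and the top dose in both sexes without passing the test. Males read 265, 115, 228, 264 and 254 CPM, and the lowest of these was replicate 2, the mouse with the second fewest counts. Their change was 0.56 ± 0.22, adjusted p = 0.36. Females read 225, 262, 251 and 292 CPM, of which 1 was within the control range, with 0.52 ± 0.23, adjusted p = 1. At 0.1 mg/kg/day the changes were 0.14 ± 0.22, adjusted p = 1 and -0.02 ± 0.22, adjusted p = 1.

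**Figure D4:**
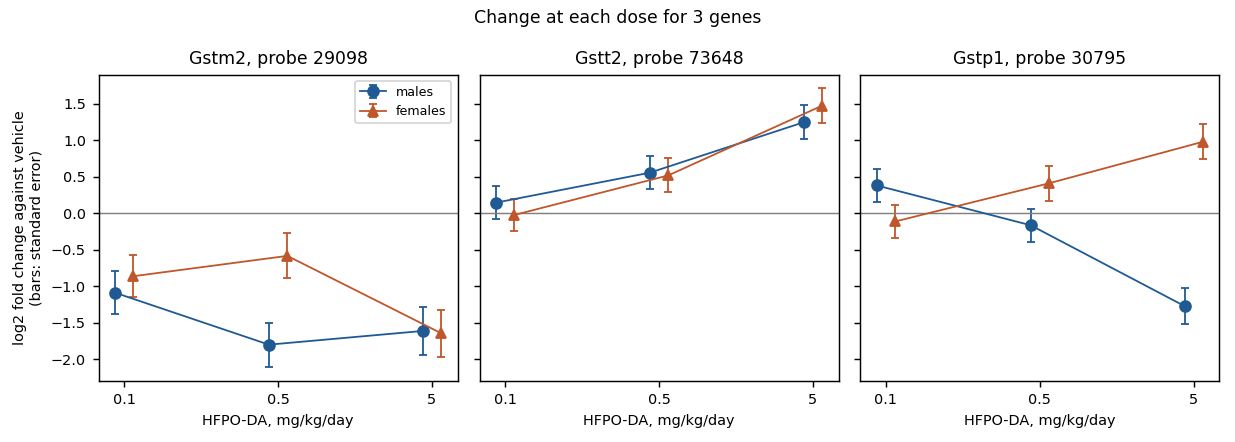
Log2 fold change against vehicle (y axis, bars are standard errors) by dose (x axis, mg/kg/day) for Gstm2, Gstt2 and the lead probe of Gstp1 in males (circles) and females (triangles). Gstm2 in males is lowest at 0.5 mg/kg/day, -1.80, Gstt2 is highest at 5 mg/kg/day in both sexes, and the Gstp1 lines part at 5 mg/kg/day.

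Gstt1 (chr10:75783813-75798584, minus strand), which acts on small halogenated compounds, was measured by 3 probes, none of which was called in any comparison. The lead probe read 105 to 178 CPM in control males and 41.3 to 156 CPM in males at 5 mg/kg/day, with -0.38 ± 0.29, adjusted p = 0.472. In females it read 113 to 221 CPM in the controls and 182 to 241 CPM at 5 mg/kg/day, with 0.37 ± 0.28, adjusted p = 0.8. The second probe changed by -0.22 ± 0.42, adjusted p = 0.832 in males and 0.55 ± 0.41, adjusted p = 0.788 in females. The third had a median of 17 counts per mouse and none in 6 mice.

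Gstk1, the kappa enzyme, lies at chr6:42245935-42250447 (plus strand) and has 1 probe. In control males it read 441, 369.6, 381, 411 and 343 CPM. Those at 5 mg/kg/day read 714, 639.7, 473 and 389.7 CPM, of which 1 was within the control range, and the log2 fold change was 0.51 ± 0.18, adjusted p = 0.0743, the smallest of the calls. It was lost in 9 of 20 alternatives, among them 6 of the 9 that left out 1 mouse. In females it read 399, 375, 533, 468 and 338 CPM in the controls and 434, 415, 451 and 630.1 CPM at 5 mg/kg/day, with 0.19 ± 0.18, adjusted p = 0.907, and the sexes differed by 0.32 ± 0.26, adjusted p = 0.765. The 250 bases before its start hold 1 match to AGGTCA, the half-site of nuclear receptors such as PPARα, on the minus strand at -141, where it is printed as TGACCT in capitals (chr6:42245685-42245934, plus strand, GRCm38.p6, RefSeq).
Gstk1: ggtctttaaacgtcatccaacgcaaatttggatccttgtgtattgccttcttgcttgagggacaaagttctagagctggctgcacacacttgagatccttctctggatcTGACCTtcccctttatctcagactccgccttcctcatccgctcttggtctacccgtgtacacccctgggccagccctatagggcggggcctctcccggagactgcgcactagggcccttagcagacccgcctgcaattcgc

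Motifs were searched on both strands of the 300 bases around each RefSeq start, and a match to TGACNNNGC can overlap one to either other motif on the opposite strand, though no match in the members did. RefSeq entries were at hand for 8 of the 10 members and matched by symbol, with none for Gsta4 and Gstt2. Over 32851 such stretches, 12.4% held TGACNNNGC, 5.2% held TGAGTCA and 16.3% held AGGTCA on either strand. Besides the matches shown, AGGTCA was found at -5 of the second start of Gstm1. A match is a run of letters and not a shown site of binding.

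At the lower doses, Gstm2 in males at 0.5 mg/kg/day was the single call, 1 of 17 probes lowered where 0.242% of all probes were. In females at 0.5 mg/kg/day edgeR called 0 of 17, against 0.113% of all probes in either direction, and DESeq2 on all mice called 0. The unadjusted p of edgeR was under 0.05 there for 2 of 17, and for 804 of all 18570 probes. At 0.1 mg/kg/day edgeR called 0 of 17 in males and 0 of 17 in females, as it called 0% of all probes in each sex. At this dose the unadjusted p of edgeR was under 0.05 for 2 of 17 probes in males and 1 of 17 in females. Over all 18570 probes it was under 0.05 for 1325 in males and 442 in females. DESeq2 on all mice called 0 of the 17 in both sexes. The comparisons within a sex share the same control mice.

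Among 15 other soluble transferase genes listed for context, 12 passed the filter on low counts. In males at 5 mg/kg/day Gstm4 rose and Gstz1 and Gstp2 fell, and in females Gstm4 and Gstp2 rose. Over all probes at this dose, 4.21% were raised and 8.49% lowered in males, and 2.26% and 2.26% in females. The median log2 fold change of the 12 was 0.10 in males and 0.19 in females. Gstm4, a mu enzyme, had log2 fold changes of 1.08 ± 0.27, adjusted p = 0.00734 in males and 1.23 ± 0.27, adjusted p = 0.00283 in females. Gstz1, the zeta enzyme of tyrosine breakdown, changed by -0.64 ± 0.17, adjusted p = 0.0121 in males and -0.36 ± 0.17, adjusted p = 0.366 in females. Gsta1 read 5.77 ± 3.2 CPM (SD, n = 5) in control males and 24 ± 25.7 (SD, n = 4) at 5 mg/kg/day, with 2.06 ± 0.84, adjusted p = 0.125. Gstt3 was higher in control females than in control males, with a male minus female log2 difference of -1.69 ± 0.28, adjusted p = 5.74e-05. Of 6 membrane transferase genes, 3 passed the filter and edgeR called 0 of the 3, which says little at these shares of all probes. Mgst1, the microsomal enzyme, measured -0.21 ± 0.14, adjusted p = 0.398 in males and 0.29 ± 0.14, adjusted p = 0.407 in females.

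Some genes that make, recycle or use glutathione were called in each direction at 5 mg/kg/day. Over all probes 4.21% were raised and 8.49% lowered in males, and 2.26% and 2.26% in females. Of 16 genes of glutathione synthesis and recycling tested, 2 rose and 3 fell in males, and 1 rose and 2 fell in females, with medians of -0.11 and 0.17. Cth and Cbs, which make cysteine from homocysteine, fell in both sexes, with log2 fold changes of -0.88 ± 0.25, adjusted p = 0.0196 in males and -1.56 ± 0.25, adjusted p = 4.49e-05 in females for Cth. Those of Cbs were -1.05 ± 0.30, adjusted p = 0.0208 and -1.14 ± 0.30, adjusted p = 0.0185. Oplah, which opens oxoproline to glutamate, rose, with 0.77 ± 0.21, adjusted p = 0.0142 in males and 1.64 ± 0.21, adjusted p = 5.07e-07 in females. Ggct, which releases oxoproline from glutamyl peptides, rose in males by 2.52 ± 0.77, adjusted p = 0.0336 and in females measured 1.01 ± 0.74, adjusted p = 0.772.

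Of 5 glutathione peroxidase genes tested, 2 rose in males and 1 in females, with medians of 2.14 and 0.44 in which Gpx2, Gpx7 and Gpx8 had few counts. Gpx4, which reduces lipid hydroperoxides in membranes, rose by 0.72 ± 0.16, adjusted p = 0.00222 in males and 0.73 ± 0.16, adjusted p = 0.0031 in females. Gpx1, the cytosolic enzyme, rose by 0.58 ± 0.14, adjusted p = 0.00569 in males and measured 0.42 ± 0.14, adjusted p = 0.107 in females. Of 10 genes of conjugate export and mercapturate formation, 2 rose and 1 fell in males, and 1 fell in females, with medians of -0.02 and 0.15. The shares of all probes were 4.21% raised and 8.49% lowered in males, and 2.26% for each in females. Abcc4 and Abcg2, both export pumps, rose in males. Abcc4 read 0.156 ± 0.348 CPM in control males (SD, n = 5) and 6.78 ± 6.71 CPM at 5 mg/kg/day (SD, n = 4), with an adjusted p of 0.00392, and Abcg2 changed by 2.11 ± 0.50, adjusted p = 0.00385. Acy1, which removes the acetyl group of mercapturates, fell, with -0.80 ± 0.25, adjusted p = 0.0365 in males and -0.79 ± 0.25, adjusted p = 0.0676 in females.

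Of 9 genes for regulators of transferase genes, edgeR called 0 in males and 1 in females, with medians of -0.35 and -0.08. Beside these, 4.21% of all probes were raised and 8.49% lowered in males, and 2.26% and 2.26% in females. Rxra, the shared partner of nuclear receptors, fell in females, with -0.55 ± 0.16, adjusted p = 0.0437, and measured -0.42 ± 0.16, adjusted p = 0.1002 in males, just over the threshold. Ppara, the receptor for fatty acids, measured -0.58 ± 0.23, adjusted p = 0.116 in males and 0.29 ± 0.23, adjusted p = 0.824 in females. Among 11 indicator targets of these regulators, 4 rose and 1 fell in males, and 3 rose and 1 fell in females, with medians of 0.65 and 0.55. Cyp4a10 and Cyp4a14, targets of PPARα, rose in both sexes, Cyp4a14 by 5.95 ± 0.68, adjusted p = 2.35e-08 in males and 5.91 ± 0.68, adjusted p = 3.99e-08 in females. Srxn1, a target of NRF2, rose in males by 2.77 ± 0.80, adjusted p = 0.0217 and measured 1.42 ± 0.77, adjusted p = 0.495 in females. Cyp1a2, a target of the aryl hydrocarbon receptor, fell, with -1.62 ± 0.20, adjusted p = 1.06e-07 in males and -1.14 ± 0.19, adjusted p = 8e-05 in females.

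Hepatocyte markers were present in every mouse, and some of those of zones of the liver lobule fell at 5 mg/kg/day. In males at 0.5 mg/kg/day, where Gstm2 was called, 0 of the 6 genes of either zone were called. Over all probes 0.382% were raised and 0.242% lowered in that comparison, so 0 of 6 says little. The median log2 fold change there was -0.56 for the pericentral and -0.09 for the periportal genes. Over all probes at 5 mg/kg/day, 8.49% were lowered in males and 2.26% in females. Of 6 periportal hepatocyte genes, 5 fell in males at 5 mg/kg/day and 2 in females, and their summed level was 4248 to 8516 CPM in control males and 2333 to 2986 CPM at 5 mg/kg/day. In females it was 4053 to 8359 and 2821 to 5893 CPM. Of 6 pericentral genes, 3 fell in males and 1 in females, and the sums were 4243 to 9323 and 1525 to 4043 CPM in males and 4564 to 5962 and 2328 to 5235 CPM in females. The median log2 fold change at 5 mg/kg/day was -1.37 in males and -0.50 in females for the pericentral genes. For the periportal genes it was -1.40 and -0.47. Glul, 1 of the 6 pericentral genes, was not called in either sex. Of 5 general hepatocyte genes measured, 2 fell in each sex, Tat and Hpd in males and Ttr and Hpd in females, while Alb measured -0.16 ± 0.16, adjusted p = 0.645 in males and -0.25 ± 0.16, adjusted p = 0.68 in females. The part of these genes in the changes of the transferases was not tested.

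Other cell types gave few calls, which says little for lists this short. Of 6 endothelial genes 1 fell in males, and no gene of the cholangiocyte, Kupffer cell, stellate cell or lymphocyte lists was called at 5 mg/kg/day in either sex. Over all probes at this dose, 4.21% were raised and 8.49% lowered in males, and 2.26% and 2.26% in females. No adipocyte gene passed the filter, and their highest sum in any mouse was 3.23 CPM. Of 4 erythroid genes, 2 passed the filter and 1 was called higher in control males than in control females, as Gstp1 was. The 4 summed to 53 to 112 CPM in control males and 0.885 to 10.9 CPM in control females. That sum was mostly Alas2, 74.7 ± 22.3 CPM (SD, n = 5) in control males and 3.4 ± 1.92 CPM (SD, n = 5) in control females. In males at 5 mg/kg/day, where Gstp1 fell, the 4 genes summed to 38.3 to 80.9 CPM and 0 of the 2 tested were called. In females at 5 mg/kg/day, where Gstp1 rose, the 4 genes summed to 6.55 to 19.1 CPM and 0 of the 2 were called. The median log2 fold change of the 2 at this dose was -0.17 in males and 1.31 in females. The part of erythroid cells in the Gstp1 difference was not tested.

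Across the 37 mice, log2 CPM of the 2 Gstp1 probes rose and fell together (Pearson r = 0.99), as did those of Gstt2 (r = 0.88). The 2 probes of Gsta3 gave r = 0.65 and the first 2 of Gstt1 gave r = 0.71. Probes with few counts were less like the others of their gene, with r = 0.41 in Gsta2, 0.36 in Gstm3, and 0.41 and 0.32 for the third probe of Gstt1 against the first and the second. Between genes the closest pair was Gstm1 and Gstm3 (r = 0.82). Of all probes tested, that most like Gstp1 was Gstp2 (r = 0.97), followed by Scp2 (r = 0.95) and C6 (r = 0.95). That most like Gstt2 was Hadha (r = 0.88), the alpha subunit of the mitochondrial trifunctional protein, and that most like Gsta2 was Gm3776 (r = 0.85). Gm3776 was not among the genes searched for shared windows, so shared reads with Gsta2 were not checked. These mice share sex and dose groups, so the values describe the panel and carry no test.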

How the data were processed

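Liver sections of 37 mice were assayed by TempO-Seq. The authors sequenced the ligated probes, aligned the reads with Bowtie after bcl2fastq 2.17.1.14 (per the labels), removed 3 of 40 mice for low depth or few probes, and deposited raw counts per probe with no normalization. The genome build is not given in the sources used here. Samples were grouped by sex and dose from the labels, all columns were mapped, and no 2 mice had identical counts.

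Counts were fitted with edgeR 4.0.16 in R 4.3.3, using TMM, filterByExpr over the 8 groups and the quasi-likelihood method with 1 mean for each group. Each dose was set against the control of the same sex, the change at 5 mg/kg/day between the sexes, and control males against control females. P-values were adjusted by Benjamini and Hochberg's method over 18570 probes of 13004 genes, with a threshold of 0.10. All 17 member probes passed the filter. The standard error is the log2 fold change divided by the square root of the F statistic. The fit was tested on simulated data. Alternatives used DESeq2 1.42.0 and its size factors, other filters, a robust fit, each sex apart, summed probes, thinned counts, a threshold of 0.05 and each mouse left out in turn. Leaving out the 2 shallowest mice was added after seeing the data. Up to 4 genes with the smallest adjusted p at 5 mg/kg/day were named per context list, and other genes of a list, Gstt3, Glul, Alas2, Alb, Tat, Hpd and Ttr among them, were named after their values were seen. The members and lists were chosen with earlier results of these data known. Gene positions are from GENCODE M21, which held 21302 of the 21450 symbols, and upstream sequences from RefSeq on GRCm38.p6.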

Additional observations from a re-analysis of the deposited data

Results flagged for a closer look

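Of 80 groups of lead probe values tested, 8 held a mouse far from the others by Dixon's criterion, and chance flags about 1 in 20 groups. In males at 0.5 mg/kg/day, Gsta2 was 23.4 CPM in replicate 2 against 84.2 to 93.1 CPM in the others, and Gstt2 was 115 CPM in the same mouse against 228 to 265 CPM. That mouse had 2608954 counts in all. Gsta3 was 1356 CPM in male replicate 3 at 5 mg/kg/day, which had 2101495 counts, against 2286 to 2433 CPM. Gstm3 was 693 CPM in male replicate 5 at 0.5 mg/kg/day against 927 to 1014 CPM, and 926 CPM in female replicate 4 at 0.1 mg/kg/day against 741 to 790.2 CPM. Gstt1 was 85.3 CPM in female replicate 2 at 0.1 mg/kg/day against 147 to 171 CPM. Gstk1 was 224 CPM in male replicate 4 at 0.1 mg/kg/day against 374 to 431 CPM, and 630.1 CPM in female replicate 4 at 5 mg/kg/day against 415 to 451 CPM.

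The change of Gstp1 at 5 mg/kg/day differed between the sexes in edgeR's test of the interaction, by -2.26 (adjusted p = 0.000134) for the lead probe and by -2.27 (adjusted p = 0.000146) for the other, males minus females on the log2 scale. All 4 males at 5 mg/kg/day lay below the control males and all 4 females lay above the control females for the lead probe.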

How the results depend on the processing

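Over the alternatives run, 166 counts of called probes stayed within 1.5 times the main count and 3 did not, and no called value changed sign. The 166 include counts of 0 against a main count of 0, for females at 0.5 and both sexes at 0.1 mg/kg/day. Those say little about how stable the calls are. With the probes of a gene summed, the count for females at 5 mg/kg/day was 3 in place of 5 and that for the difference between the sexes was 1 in place of 2, since genes and not probes were then counted. DESeq2 fitted to males alone called 1 probe at 0.1 mg/kg/day, Gstm2, in place of 0. No paired analysis was possible because the labels give no replicate numbers that pair mice across groups.

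Gstm2, Gstt2, Gstp1 and Gsta4 in males and Gstm2 and Gstt2 in females kept their calls at 5 mg/kg/day on the lead probe in every alternative run. Gstk1 in males fell to 0.33 at the lowest, with adjusted p up to 0.311. Gsta3 in males was not called without the 2 shallowest mice (-0.51, adjusted p = 0.117). The second probes of Gsta2 and Gstm3 and the third of Gstt1, with medians of 11, 31 and 17 counts, could not show changes of about 2-fold. The cause of these losses was not tested.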
